A study of Mus musculus with 11 samples.

Results

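The chemokine, cytokine and receptor genes are the genes whose mouse symbol names a chemokine (Ccl, Cxcl, Cx3cl1), a chemokine receptor (Ccr, Cxcr, Ackr), an interleukin or its receptor, a colony-stimulating factor or its receptor, or a member of the TNF and TNF receptor superfamilies, together with Lif, Lifr, Il6st, Tnf and Osmr. The rule uses symbols alone and was set with earlier results of these data known. Of the 14272 genes with values, 56 met this rule, and 116 of the 172 symbols of the annotation that match it were not analysed here. The 56 members comprise 20 ligands (9 chemokines, 7 interleukins or related ligands, Csf1 and 3 TNF superfamily genes, of which Tnfsf13os is a noncoding antisense gene) and 36 receptors (5 of chemokines, 18 of interleukins or related ligands, Csf1r and 12 of the TNF receptor superfamily).

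Chemokines are small secreted proteins that direct the migration of cells along a gradient through receptors coupled to G proteins. Interleukins and related cytokines bind receptor chains at the cell surface that signal through Janus kinases and STAT factors or, in the IL-1, IL-17 and TNF families, through adaptor proteins that lead to NF-kB. Melanocytes and melanoma cells are known to release and to respond to several of these factors, and many of the genes are regulated by inflammatory signals.

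The libraries come from a murine model in which melanocytes were taken through cycles of detachment and re-adhesion. The parental line is melan-a, which consists of epithelial-like mouse melanocytes of C57BL/6 background that became immortal in culture without being malignant. The derived line 4C is pre-malignant and mesenchymal-like, 4C11- is a mesenchymal-like melanoma line that is not metastatic, and 4C11+ is a metastatic melanoma line with an epithelial morphology. All lines were grown with 5% fetal bovine serum, and only melan-a received PMA, a phorbol ester that activates protein kinase C, at 200 nM. The effect of PMA therefore cannot be told apart from that of the line, and each state is represented by a single line. Total RNA of replicates of each line was sequenced, and the 11 libraries used here are 3 for each of the derived lines and 2 for melan-a, which are its replicates 2 and 3. Whether replicates are separate cultures is not stated in the sources used here.

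Expression is given in log2 CPM, the log2 of counts per 10⁶ reads as the authors normalized them. The low values lie on steps of single reads, from which the depth was estimated, in M reads (10⁶ reads), at 3.50 and 5.82 (melan-a replicates 2 and 3), 5.67 to 7.08 (4C), 4.58 to 7.42 (4C11-) and 4.07 to 5.47 (4C11+). These estimates come from the step at 40 reads and depend on that choice. A lower and a higher step gave 5.22 and 4.16 for 4C11- replicate 1, and 5.52 and 6.39 for melan-a replicate 3. A value of 0 reads corresponds to a log2 CPM of -3.44 to -2.44, depending on the library. A level of 3 reads in each library was taken as the floor. Of the 56 members, 21 had over 3 reads in all 11 libraries, and the number with 3 reads or fewer in every library of a line was 15 for 4C11+, 12 for melan-a, 3 for 4C and 1 for 4C11-. These counts do not compare the lines at equal expression, because 3 reads mean different log2 CPM values. The 4C11+ libraries have them at 0.15, 0.15 and -0.24, those of 4C11- at -0.70, -2.01 and -2.01. Tnfrsf14 (4C11+ mean -0.26) was therefore counted, while Ccl5 (4C11- mean -0.56) was not. Only 2 libraries had to be low for melan-a. Where all libraries of a group were at 0 reads, a fold change is a bound computed from the floor. Where they held few reads, a CPM ratio is given with an exact interval that covers counting error only. Each such ratio compares summed reads per summed estimated depth between the groups. It is therefore not the ratio of the deposited CPM values and can differ from it.

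The 2 melan-a libraries differed from each other more than most libraries of a line, with a Pearson correlation across all genes of 0.907 (across genes, which are not independent replicates), and 4C11- replicate 1 also stood apart, at 0.888 to the least similar library of its line. Among the members, Il33 was 0.63 and 4.04 in melan-a (replicates 2 and 3), Il1rap was 3.93 and 7.07 in melan-a and Cx3cl1 was 5.84 and 2.45 in melan-a. Calls that were lost when 1 library was left out are therefore named with each result.

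**Figure D1:**
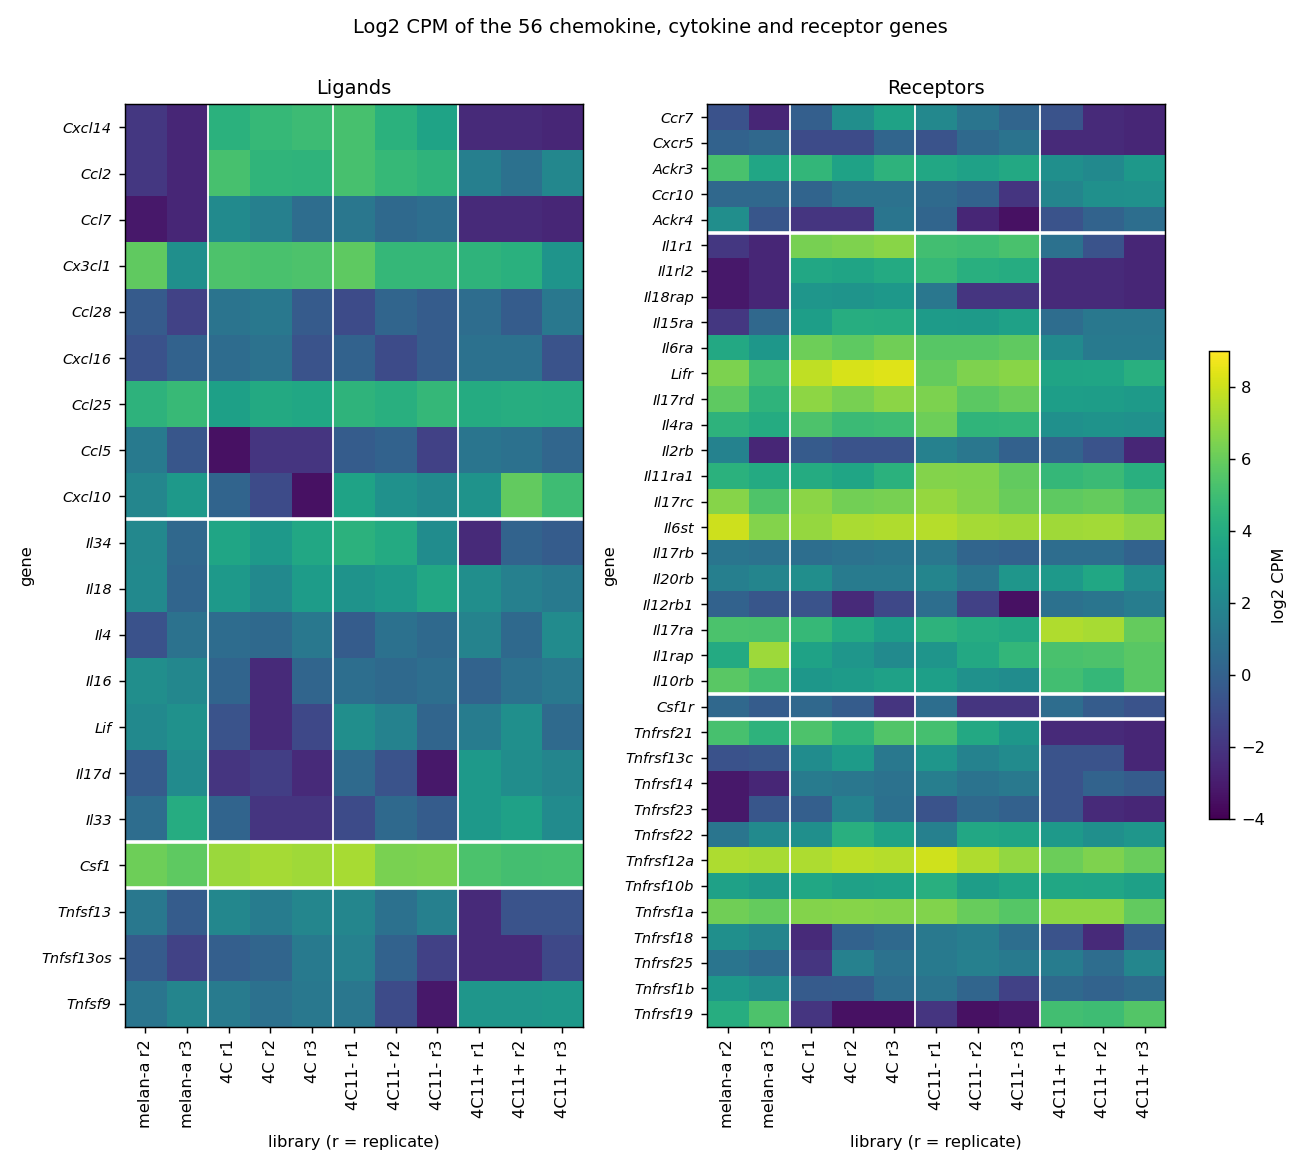
Log2 CPM (color) of the 56 members (rows, ligands on the left and receptors on the right, by class and then by the difference between 4C with 4C11- and melan-a with 4C11+) in each of the 11 libraries (columns). Each of Cxcl14, Ccl7, Il1r1 and Il1rl2 is higher in all 6 libraries of 4C and 4C11- than in any of the 5 libraries of melan-a and 4C11+. Ccl7 stays low, at most 2.23, and Tnfrsf19 shows the opposite order.

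In 4C compared with melan-a, 23 of the 56 members passed the threshold (limma, adjusted p under 0.05 over all genes), 14 higher and 9 lower, that is 41.1% of the members, while 15.2% of all genes passed (7.64% higher and 7.55% lower). In 4C11- compared with 4C, 3 members passed, 1 higher and 2 lower (5.36%), against 1.67% of all genes (1.26% higher and 0.406% lower). In 4C11+ compared with 4C11-, 28 members passed, 7 higher and 21 lower (50%), against 31.1% of all genes (15.6% higher and 15.4% lower). In 4C11+ compared with melan-a, 13 members passed, 3 higher and 10 lower (23.2%), against 15.9% of all genes (8.39% higher and 7.52% lower). The comparison of the mesenchymal-like lines 4C and 4C11- with the epithelial lines melan-a and 4C11+ called 34 members, 22 higher and 12 lower (60.7%), against 29.7% of all genes (14.3% higher and 15.3% lower). These comparisons share libraries and are not independent of each other.

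A gene entered the table if 4 or more libraries reached 1 CPM, so a member silent in some lines entered through the lines where it is high, and the shares above describe the members without showing that they change more often than other genes. The median log2 difference of the members between mesenchymal-like and epithelial lines was 0.51 (0.51 with bounds in place of fitted values), and that of all genes was -0.09. In 4C11+ compared with 4C11- it was -0.97 for the members (-0.57 with bounds) and 0.12 for all genes.

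Several of these counts rest on single libraries. Without melan-a replicate 3, 15 members passed between 4C and melan-a (26.8%, with 12.98% of all genes in that fit). Between 4C11+ and melan-a the count was 3 without melan-a replicate 2 (5.36%, with 8.30% of all genes), 8 without melan-a replicate 3 (14.3%, with 17.6% of all genes), 6 without 4C11+ replicate 1 (10.7%, with 7.63% of all genes) and 7 without 4C11+ replicate 2 (12.5%, with 8.02% of all genes). Between 4C11- and 4C it was 1 without 4C replicate 2, 4C replicate 3, 4C11- replicate 2, 4C11+ replicate 2 or 4C11+ replicate 3 (1.79%), where 0.652%, 0.792%, 0.68%, 1.19% and 1.37% (in this order) of all genes passed. The other 2 comparisons had counts of 24 to 31 (4C11+ and 4C11-) and 29 to 37 (mesenchymal-like and epithelial lines) whichever library was left out.

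**Figure D2:**
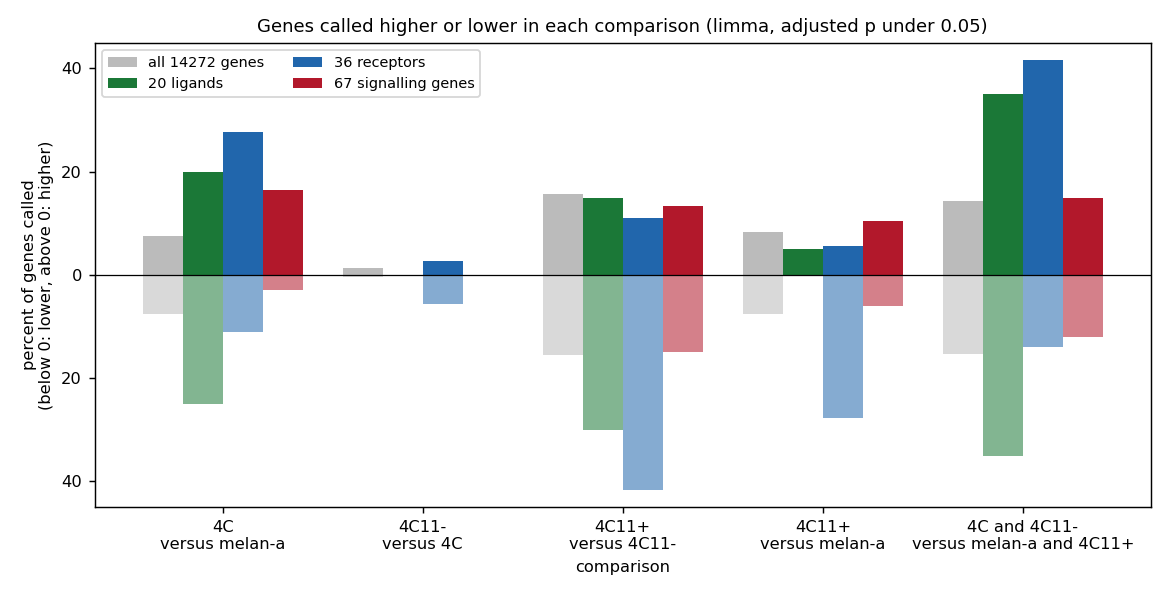
Percent of genes called higher (above 0) or lower (below 0, lighter) in each of the 5 comparisons (limma, adjusted p under 0.05), for all 14272 genes, the 20 ligands, the 36 receptors and 67 signalling genes. Of the 36 receptors, 15 were called lower in 4C11+ than in 4C11- and 4 higher (together 52.8%), against 31.1% of all genes (15.4% lower and 15.6% higher). Members silent in some lines entered through the lines where they are high, so these shares only describe the receptors.

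Among the chemokines, Cxcl14, Ccl2 and Ccl7 were higher in the mesenchymal-like lines. CXCL14 is a chemokine made by epithelia that acts on dendritic cells and monocytes. In log2 CPM, Cxcl14 was -1.90 and -2.58 (melan-a), 4.29, 4.73 and 4.91 (4C), 5.23, 4.29 and 3.52 (4C11-), and -2.44, -2.44 and -2.58 (4C11+). All 6 libraries of 4C and 4C11- were high, the 2 of melan-a held 1 read together, and those of 4C11+ were at 0 reads. Its CPM, taken as reads per estimated depth, was higher in 4C than in melan-a by a ratio of 235 (95% counting interval 41.99 to 9304, limma adjusted p = 4.08e-06), and in 4C11+ it was at least 20.04-fold lower than in 4C11- (limma adjusted p = 1.05e-06). The mean deposited CPM of Cxcl14 was 25.4 in 4C and 0.218 in melan-a. Bulk RNA cannot tell fewer cells that express a gene from less RNA in each cell, for this gene or any other.

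CCL2 and CCL7 attract monocytes through the receptor CCR2, and their genes lie next to each other on chromosome 11 with 8.26 kb between them. The log2 CPM of Ccl2 was -1.90 and -2.58 (melan-a), 5.19, 4.51 and 4.47 (4C), 5.20, 4.71 and 4.46 (4C11-), and 1.60, 0.85 and 2.03 (4C11+). The mesenchymal-like libraries were the highest, 4C11+ lay between, melan-a held 1 read in all, and these 3 ranges did not overlap. Ccl2 was higher in 4C than in melan-a by a CPM ratio of 253 (95% counting interval 45.3 to 10029.7, limma adjusted p = 1.21e-06), its log2 difference between 4C11+ and 4C11- was -3.30 ± 0.41 (limma adjusted p = 0.000106), and it was still higher in 4C11+ than in melan-a, by a ratio of 25.1 (95% counting interval 4.24 to 1019, limma adjusted p = 0.000309). For Ccl7 the log2 CPM was -3.15 and -2.58 (melan-a), 2.23, 1.66 and 0.63 (4C), 1.13, 0.44 and 0.70 (4C11-), and -2.44, -2.44 and -2.58 (4C11+). It was low but present in the 6 mesenchymal-like libraries and at 0 reads in the other 5, a difference of at least 3.73-fold between 4C and melan-a (limma adjusted p = 0.000534) and of at least 1.66-fold between 4C11- and 4C11+ (limma adjusted p = 0.00114). Of the nearest genes with values on either side, Myo1d and Tmem98, 1256 and 1214 kb away, were also higher in the mesenchymal-like lines, with log2 differences of 4.06 ± 0.37 and 3.75 ± 0.66 (limma adjusted p = 6.6e-06 and 0.00112). The 4C11+ mean of Myo1d was -2.49, that of Ccl7 at 0 reads. The estimate of Myo1d therefore depends on how values at 0 reads were set. Zfp830 and Gm11423, 717 and 732 kb away on the other side, had differences of -0.01 ± 0.20 and 0.06 ± 0.39 and did not pass. These 4 genes were chosen by position.

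Cxcl10 and Ccl5 encode chemokines that attract T cells and are known targets of interferon and NF-kB signalling. The log2 CPM of Cxcl10 was 1.97 and 2.97 (melan-a), 0.20, -1.01 and -3.44 (4C), 3.54, 2.60 and 2.17 (4C11-), and 2.69, 5.90 and 4.99 (4C11+). It was lowest in 4C, without overlap with any other line, and the values of melan-a, 4C11- and 4C11+ overlapped. The log2 difference between 4C and melan-a was -3.89 ± 1.06 (limma adjusted p = 0.0282), a call that was lost without melan-a replicates 2 or 3 or 4C replicates 2 or 3 (log2 difference -4.38 to -2.88), and that of the mesenchymal-like against the epithelial lines was -2.82 ± 0.71 (limma adjusted p = 0.0105), with overlap since 4C11- lay in the range of melan-a and 4C11+. Ccl5 was 1.35 and -0.54 (melan-a), -3.44, -2.01 and -2.01 (4C), -0.24, 0.06 and -1.50 (4C11-), and 1.04, 0.85 and 0.28 (4C11+). Its reads were few in every line, 13 in melan-a and 4 in 4C, and its CPM was higher in melan-a than in 4C by a ratio of 6.72 (95% counting interval 2.08 to 28.3, limma adjusted p = 0.0283), a call lost without melan-a replicate 2 or 4C replicate 1 (log2 difference -2.42 to -1.95). Between mesenchymal-like and epithelial lines the log2 difference of Ccl5 was -2.09 ± 0.53 (limma adjusted p = 0.011), lost without melan-a replicate 2 (log2 difference -1.61).

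The other 4 chemokines passed in no comparison. Cx3cl1, the membrane-bound fractalkine, ranged from 2.45 to 5.84 log2 CPM over the 11 libraries and Ccl25, known for its role in the gut and thymus, from 3.40 to 4.78. Ccl28 (-1.42 to 1.21) and Cxcl16 (-1.01 to 0.93) were near the floor.

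Promoter sequences of Cxcl14 and Cxcl10 are given as a description, and their part in the expression of these genes was not tested. They were taken from RefSeq on build GRCm38.p6, from 250 bases before to 50 bases after a gene's start, and 39 of the 56 members matched an entry, with 50 windows in all. A search of both strands used 3 motifs, GGGNNTTTC (in sites of NF-kB), TTCNNNGAA (bound by STAT factors) and TGANTCA (bound by AP-1). Other forms of NF-kB sites and other interferon-responsive elements were not searched. Letters left in lower case may therefore include such sites, and a lack of matches does not show that a window has none. The Cxcl14 window (chr13:56296502-56296801, minus strand) holds 1 match to TTCNNNGAA and the Cxcl10 window (chr5:92348840-92349139, minus strand) 1 match to TGANTCA, shown in capitals 5′ to 3′.
Cxcl14: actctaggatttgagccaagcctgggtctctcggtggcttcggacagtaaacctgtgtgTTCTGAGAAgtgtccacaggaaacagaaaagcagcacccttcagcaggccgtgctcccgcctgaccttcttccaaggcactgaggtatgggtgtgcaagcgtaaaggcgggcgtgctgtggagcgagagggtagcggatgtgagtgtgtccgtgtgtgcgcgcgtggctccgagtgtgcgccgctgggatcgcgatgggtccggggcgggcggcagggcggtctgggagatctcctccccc
Cxcl10: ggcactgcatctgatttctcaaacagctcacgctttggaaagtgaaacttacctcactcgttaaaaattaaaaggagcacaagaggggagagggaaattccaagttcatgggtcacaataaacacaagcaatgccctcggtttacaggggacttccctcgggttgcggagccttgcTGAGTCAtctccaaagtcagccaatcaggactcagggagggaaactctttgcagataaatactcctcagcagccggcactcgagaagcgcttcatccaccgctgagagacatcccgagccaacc

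Of the 32851 promoter windows of this length, 8.30% hold TTCNNNGAA, 7.81% TGANTCA and 4.36% GGGNNTTTC. Among the 50 windows of members, 8, 7 and 8 held these motifs. A match describes the letters of the window and is not a site of binding.

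Of the 7 interleukin and related ligands, Il34 and Il18 were higher and Il33, Il17d, Lif and Il16 lower in the mesenchymal-like lines. IL-34 is a ligand of the CSF1 receptor. Its gene Il34 was 2.07 and 0.40 (melan-a), 3.64, 2.99 and 3.80 (4C), 4.36, 3.95 and 2.32 (4C11-), and -2.44, 0.15 and -0.24 (4C11+), in log2 CPM. It was high in 4C and 4C11-, lower in melan-a and near the floor in 4C11+, with no overlap between mesenchymal-like and epithelial libraries. The log2 difference between these lines was 3.31 ± 0.56 (limma adjusted p = 0.000878), and the CPM was higher in 4C11- than in 4C11+ by a ratio of 29.5 (95% counting interval 13.4 to 81.2, limma adjusted p = 0.00104). Il18, which encodes a cytokine of the IL-1 family that is activated by caspase-1, was 2.17 and 0.22 (melan-a), 3.002, 2.17 and 3.19 (4C), 2.66, 3.04 and 3.82 (4C11-), and 2.42, 1.68 and 1.32 (4C11+). Its values overlapped between mesenchymal-like and epithelial lines, where the log2 difference was 1.48 ± 0.42 (limma adjusted p = 0.019), lost without melan-a replicate 3 (log2 difference 0.99).

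IL-33 is a nuclear cytokine of the IL-1 family that is released from damaged cells. Il33 was 0.63 and 4.04 (melan-a), 0.20, -2.01 and -2.01 (4C), -1.01, 0.44 and -0.24 (4C11-), and 3.004, 3.44 and 2.28 (4C11+). The 4C11+ libraries and melan-a replicate 3 were high, melan-a replicate 2 lay just above the highest mesenchymal-like library, and the epithelial and mesenchymal-like libraries did not overlap. The log2 difference between mesenchymal-like and epithelial lines was -3.39 ± 0.66 (limma adjusted p = 0.00214), that between 4C and melan-a -3.61 ± 0.98 (limma adjusted p = 0.028) and that between 4C11+ and 4C11- 3.18 ± 0.88 (limma adjusted p = 0.0168). The 4C call was lost without melan-a replicate 3 or 4C replicates 2 or 3 (log2 difference -3.24 to -1.90) and the 4C11+ call without 4C11+ replicates 1 or 2 (log2 difference 2.91 to 3.13). Il17d, a member of the IL-17 family, was -0.25 and 2.29 (melan-a), -1.98, -1.61 and -2.44 (4C), 0.48, -0.70 and -3.15 (4C11-), and 3.004, 2.39 and 1.90 (4C11+). It was high in the 4C11+ libraries and melan-a replicate 3 and low elsewhere, so that melan-a overlapped the mesenchymal-like lines. Between 4C11+ and 4C11- the log2 difference was 3.55 ± 0.91 (limma adjusted p = 0.0113), lost without 4C11+ replicate 1 (log2 difference 3.27), and between mesenchymal-like and epithelial lines it was -3.29 ± 0.68 (limma adjusted p = 0.00326).

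LIF is a cytokine of the IL-6 family that signals through LIFR and gp130. Lif was 2.17 and 2.59 (melan-a), -0.70, -2.44 and -1.16 (4C), 2.41, 1.77 and 0.22 (4C11-), and 1.48, 2.45 and 0.48 (4C11+). The 4C libraries were low and the other lines higher and overlapping, with a log2 difference of -3.81 ± 0.79 (limma adjusted p = 0.00642) between 4C and melan-a and of -1.91 ± 0.53 (limma adjusted p = 0.0175) between mesenchymal-like and epithelial lines, the latter lost without melan-a replicate 3 (log2 difference -1.80). Il16, whose product attracts CD4 T cells, was 2.41 and 2.03 (melan-a), 0.20, -2.44 and 0.24 (4C), 0.69, 0.44 and 0.70 (4C11-), and 0.15, 0.85 and 1.20 (4C11+), highest in both melan-a libraries. Its log2 difference was -2.89 ± 0.76 (limma adjusted p = 0.0244) between 4C and melan-a, lost without melan-a replicates 2 or 3 (log2 difference -3.08 to -2.69), and -1.50 ± 0.51 (limma adjusted p = 0.0446) between mesenchymal-like and epithelial lines, lost without melan-a replicates 2 or 3, 4C replicate 2, 4C11- replicates 1, 2 or 3 or 4C11+ replicates 1, 2 or 3 (log2 difference -1.65 to -1.06). Il4 ranged from -0.72 to 2.28 and passed in no comparison.

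Csf1 encodes the growth factor of macrophages, the other ligand of the CSF1 receptor. Csf1 was 6.14 and 5.79 (melan-a), 7.04, 7.26 and 7.16 (4C), 7.32, 6.38 and 6.45 (4C11-), and 5.31, 5.13 and 5.18 (4C11+). It was expressed in all lines, highest in 4C and 4C11- and lowest in 4C11+, without overlap between mesenchymal-like and epithelial libraries. The log2 difference was 1.35 ± 0.19 (limma adjusted p = 0.000256) between these lines, 1.19 ± 0.29 (limma adjusted p = 0.0163) between 4C and melan-a, lost without melan-a replicate 3 or 4C replicate 2 (log2 difference 1.01 to 1.14), and -1.51 ± 0.26 (limma adjusted p = 0.00107) between 4C11+ and 4C11-. The receptor gene Csf1r had values of -2.01 to 0.69 and passed in no comparison. Tnfsf9 (4-1BB ligand, a costimulator of T cells) was 1.05 and 1.89 (melan-a), 1.40, 0.84 and 1.18 (4C), 1.13, -1.01 and -3.15 (4C11-), and 2.83, 2.81 and 2.92 (4C11+). The 4C11+ libraries were the highest, and 4C11- ranged widely below them. Its log2 difference between 4C11+ and 4C11- was 3.86 ± 0.83 (limma adjusted p = 0.00447) and between mesenchymal-like and epithelial lines -2.10 ± 0.62 (limma adjusted p = 0.0246), the latter lost without melan-a replicate 3, 4C replicate 2 or 4C11+ replicate 1 (log2 difference -2.10 to -1.89). Tnfsf13 (APRIL, a survival factor of plasma cells) was 1.21 and -0.24 (melan-a), 2.02, 1.46 and 1.97 (4C), 1.97, 0.85 and 1.66 (4C11-), and -2.44, -0.70 and -0.70 (4C11+). It was lowest in 4C11+ and lower there than in 4C11- by a CPM ratio of 13.5 (95% counting interval 4.37 to 67.3, limma adjusted p = 0.00519), but it overlaps the antisense gene Tnfsf13os, and the strand setting of the authors' counting is not given in the sources used here, so reads of these genes may not be separated.

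**Figure D3:**
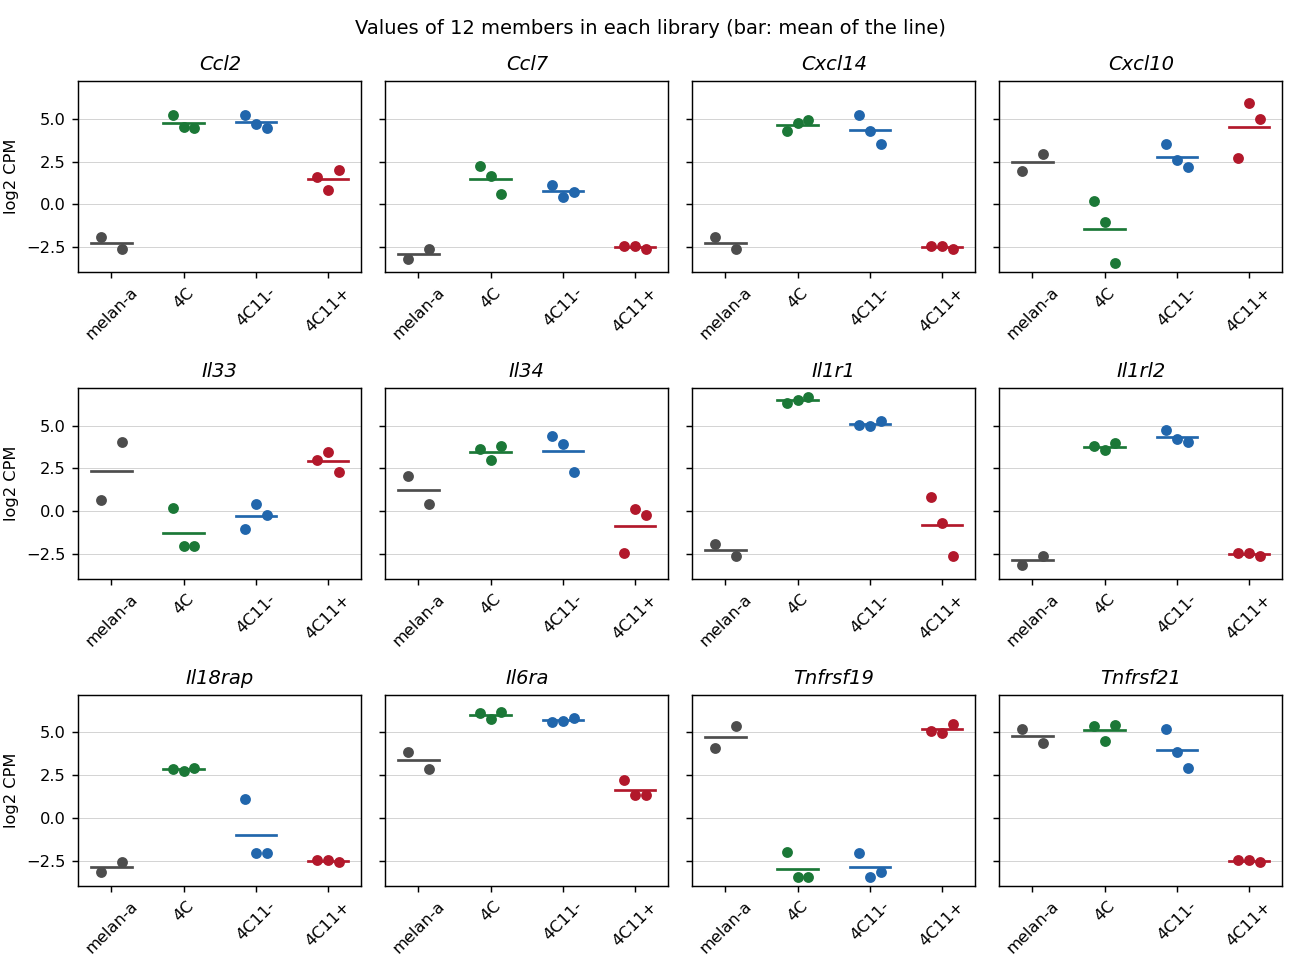
Log2 CPM of 12 members in each library (points) with the mean of each line (bars), for melan-a (2 libraries), 4C, 4C11- and 4C11+ (3 each). Ccl2 lies at 4.46 to 5.20 in the mesenchymal-like libraries, 0.85 to 2.03 in 4C11+ and at or under -1.90 in melan-a, and Tnfrsf21 is low only in the 3 libraries of 4C11+.

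Among the receptors, 3 genes of the IL-1 receptor family that lie together on chromosome 1 were expressed in 4C and nearly off in the epithelial lines. Il1r1 encodes the signalling receptor of IL-1, Il1rl2 that of the IL-36 cytokines and Il18rap the accessory chain of the IL-18 receptor. Il1r1 was -1.90 and -2.58 (melan-a), 6.31, 6.50 and 6.69 (4C), 5.06, 4.95 and 5.26 (4C11-), and 0.84, -0.70 and -2.58 (4C11+). All mesenchymal-like libraries were high, melan-a held 1 read in all and 4C11+ held 7. Its CPM was higher in 4C than in melan-a by a ratio of 843 (95% counting interval 151 to 33299, limma adjusted p = 7.97e-06), and the log2 difference between 4C11+ and 4C11- was -5.90 ± 0.67 (limma adjusted p = 4.92e-05). Il1rl2 was -3.15 and -2.58 (melan-a), 3.79, 3.57 and 3.96 (4C), 4.73, 4.22 and 4.06 (4C11-), and -2.44, -2.44 and -2.58 (4C11+). It had 0 reads in all 5 libraries of melan-a and 4C11+, so the difference was at least 17.99-fold between 4C and melan-a (limma adjusted p = 1.36e-06) and at least 19.9-fold between 4C11- and 4C11+ (limma adjusted p = 2.79e-07). Il18rap was -3.15 and -2.58 (melan-a), 2.83, 2.75 and 2.92 (4C), 1.13, -2.01 and -2.01 (4C11-), and -2.44, -2.44 and -2.58 (4C11+). The epithelial libraries were at 0 reads, 4C was even at a moderate level, and in 4C11- only replicate 1 lay above the floor. It was at least 9.37-fold higher in 4C than in melan-a (limma adjusted p = 0.000863).

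On GRCm38 these genes span chr1:40225080-40551705, with 7.35 kb between Il1r1 and Il1rl2 and 148 kb between Il1rl2 and Il18rap. Only these 3 genes of the span had values. Any other gene within it was not analysed here, so whether the span changed as a whole was not tested. The nearest genes with values on either side, Map4k4 (199 kb away) and Mfsd9 (220.3 kb away), had log2 differences between mesenchymal-like and epithelial lines of -0.34 ± 0.21 and -0.11 ± 0.57, and neither passed (limma adjusted p = 0.243 and 0.907). The promoter windows of Il1r1 (chr1:40224830-40225129, plus strand) and Il1rl2 (chr1:40324339-40324638, plus strand) are shown because these neighbours moved together, a choice made after their values were seen. Neither holds any of the 3 motifs, so they are in lower case throughout. A further Il1r1 window (chr1:40266336-40266635, plus strand) is not shown and also holds none of these motifs.
Il1r1: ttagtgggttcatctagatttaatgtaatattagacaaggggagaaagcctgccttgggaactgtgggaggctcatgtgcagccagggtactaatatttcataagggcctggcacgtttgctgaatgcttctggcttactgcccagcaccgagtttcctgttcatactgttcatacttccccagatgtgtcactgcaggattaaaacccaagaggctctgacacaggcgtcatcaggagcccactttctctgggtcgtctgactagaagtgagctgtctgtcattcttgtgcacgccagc
Il1rl2: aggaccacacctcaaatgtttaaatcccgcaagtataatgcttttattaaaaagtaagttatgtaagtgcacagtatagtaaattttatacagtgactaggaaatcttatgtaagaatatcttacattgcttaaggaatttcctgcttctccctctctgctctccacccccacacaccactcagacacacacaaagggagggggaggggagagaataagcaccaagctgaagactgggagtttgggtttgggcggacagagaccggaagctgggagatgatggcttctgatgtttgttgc

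The accessory chain Il1rap, which IL-1, IL-33 and IL-36 receptors share, was expressed in all lines at 3.93 and 7.07 (melan-a), 3.50, 2.85 and 2.21 (4C), 2.78, 3.83 and 4.63 (4C11-), and 5.26, 5.36 and 5.68 (4C11+). It was highest in melan-a replicate 3, and melan-a replicate 2 lay within the range of the mesenchymal-like libraries. The log2 difference between mesenchymal-like and epithelial lines was -2.17 ± 0.52 (limma adjusted p = 0.00831) and that between 4C and melan-a -2.65 ± 0.78 (limma adjusted p = 0.0404), the latter lost without melan-a replicate 3, 4C replicates 2 or 3, 4C11- replicate 2 or 4C11+ replicates 1, 2 or 3 (log2 difference -2.65 to -1.08). Without melan-a replicate 3 the former was -1.39, still past the threshold, and without melan-a replicate 2 the latter was -4.22.

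The receptors of the IL-6 family share gp130, the product of Il6st, which was expressed in every library (6.58 to 8.01) and passed in no comparison, while the chains that bind the ligands differed between the lines. Il6ra, the binding chain for IL-6, was 3.86 and 2.89 (melan-a), 6.15, 5.76 and 6.20 (4C), 5.61, 5.64 and 5.82 (4C11-), and 2.24, 1.32 and 1.32 (4C11+). It was highest in 4C and 4C11-, intermediate in melan-a and lowest in 4C11+, without overlap between these 3 ranges. The log2 difference was 3.36 ± 0.26 (limma adjusted p = 1.37e-06) between mesenchymal-like and epithelial lines, 2.66 ± 0.38 (limma adjusted p = 0.000527) between 4C and melan-a, -4.06 ± 0.34 (limma adjusted p = 4.87e-06) between 4C11+ and 4C11- and -1.75 ± 0.38 (limma adjusted p = 0.011) between 4C11+ and melan-a, the last lost without melan-a replicate 2 (log2 difference -1.26). Lifr, the receptor of LIF, was 6.46 and 5.001 (melan-a), 7.77, 8.21 and 8.35 (4C), 5.90, 6.50 and 6.69 (4C11-), and 3.60, 3.65 and 4.18 (4C11+). The 4C libraries were the highest and 4C11+ the lowest, and melan-a and 4C11- overlapped. Its log2 difference was 2.38 ± 0.41 (limma adjusted p = 0.00197) between 4C and melan-a, -2.55 ± 0.37 (limma adjusted p = 0.000292) between 4C11+ and 4C11- and -1.92 ± 0.41 (limma adjusted p = 0.00963) between 4C11+ and melan-a, the last lost without melan-a replicate 2 (log2 difference -1.19). Il11ra1, the binding chain for IL-11, was 4.28 and 3.96 (melan-a), 3.996, 3.64 and 4.28 (4C), 6.58, 6.53 and 5.87 (4C11-), and 4.65, 4.85 and 4.22 (4C11+). It was highest in the 3 libraries of 4C11- and similar in the other lines, but near-identical copies of this gene exist in the mouse and its reads may be shared with them.

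Il15ra, which presents IL-15 to neighbouring cells, was -1.90 and 0.40 (melan-a), 3.27, 4.11 and 4.03 (4C), 3.14, 3.07 and 3.46 (4C11-), and 0.63, 1.18 and 1.20 (4C11+). All mesenchymal-like libraries lay above all epithelial ones, with a log2 difference of 4.56 ± 0.60 (limma adjusted p = 0.000278) between 4C and melan-a and of -2.22 ± 0.54 (limma adjusted p = 0.00872) between 4C11+ and 4C11-. Il4ra, the chain shared by the receptors of IL-4 and IL-13, was 4.40 and 4.01 (melan-a), 5.36, 4.87 and 4.98 (4C), 6.14, 4.52 and 4.56 (4C11-), and 2.54, 2.67 and 2.59 (4C11+). It was lowest in 4C11+, with a log2 difference of -2.47 ± 0.40 (limma adjusted p = 0.000711) from 4C11- and of -1.60 ± 0.45 (limma adjusted p = 0.032) from melan-a, the latter lost without melan-a replicates 2 or 3, 4C replicate 2 or 4C11+ replicates 1, 2 or 3 (log2 difference -1.80 to -1.41). Il10rb, a chain of the receptors of IL-10, IL-22 and the lambda interferons, was 5.68 and 5.09 (melan-a), 2.86, 3.13 and 3.44 (4C), 3.34, 2.60 and 2.32 (4C11-), and 5.09, 4.66 and 5.66 (4C11+). It showed the opposite order, with the 5 epithelial libraries above the 6 mesenchymal-like ones and a log2 difference of -2.31 ± 0.27 (limma adjusted p = 5.57e-05).

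The IL-17 receptor genes did not move as a group. Il17ra, the chain common to most receptors of the family, was 5.31 and 5.26 (melan-a), 4.69, 3.92 and 3.25 (4C), 4.39, 4.07 and 3.83 (4C11-), and 7.44, 7.31 and 5.94 (4C11+), lowest in 4C and 4C11- and highest in 4C11+. Its log2 difference was 2.80 ± 0.44 (limma adjusted p = 0.000527) between 4C11+ and 4C11-, -2.07 ± 0.33 (limma adjusted p = 0.000514) between mesenchymal-like and epithelial lines and 1.61 ± 0.49 (limma adjusted p = 0.0441) between 4C11+ and melan-a, the last lost without melan-a replicates 2 or 3, 4C replicate 2, 4C11- replicates 2 or 3 or 4C11+ replicates 1 or 2 (log2 difference 1.34 to 1.63). Il17rd, which is known as an inhibitor of FGF signalling, was 5.79 and 4.45 (melan-a), 6.81, 6.35 and 6.76 (4C), 6.41, 5.72 and 6.01 (4C11-), and 3.30, 3.24 and 3.09 (4C11+). It was lowest in 4C11+, with a log2 difference of -2.84 ± 0.34 (limma adjusted p = 6.85e-05) from 4C11- and of -1.91 ± 0.38 (limma adjusted p = 0.00608) from melan-a, the latter lost without melan-a replicate 2 (log2 difference -1.24). It was higher in 4C than in melan-a by 1.52 ± 0.38 (limma adjusted p = 0.0174), lost without melan-a replicate 3 or 4C replicates 1 or 3 (log2 difference 0.85 to 1.46). Il17rb, the receptor of IL-25, and Il17rc, the partner of IL-17RA, passed in no comparison, and neither did Il12rb1, Il20rb or Il2rb.

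In the TNF receptor superfamily, Tnfrsf19 was on in the epithelial lines and nearly off in the mesenchymal-like ones. Tnfrsf19 (TROY) is an orphan receptor known as a target of Wnt signalling. Tnfrsf19 was 4.10 and 5.37 (melan-a), -1.98, -3.44 and -3.44 (4C), -2.01, -3.44 and -3.15 (4C11-), and 5.06, 4.95 and 5.51 (4C11+). It was on in all 5 libraries of melan-a and 4C11+ and at 2 reads in all of 4C and 2 in all of 4C11-. Its CPM was higher in melan-a than in 4C by a ratio of 311 (95% counting interval 85.4 to 2581, limma adjusted p = 8.37e-06) and higher in 4C11+ than in 4C11- by a ratio of 349.9 (95% counting interval 96.4 to 2897, limma adjusted p = 1.59e-06). Tnfrsf21 (death receptor 6) was 5.21 and 4.39 (melan-a), 5.38, 4.50 and 5.45 (4C), 5.17, 3.86 and 2.89 (4C11-), and -2.44, -2.44 and -2.58 (4C11+). It was expressed in melan-a, 4C and 4C11- and at 0 reads in each library of 4C11+, where it was at least 15.5-fold lower than in 4C11- (limma adjusted p = 4.15e-06) and at least 27.5-fold lower than in melan-a (limma adjusted p = 1.18e-05).

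Tnfrsf13c (the BAFF receptor) was -0.72 and -0.54 (melan-a), 2.32, 3.11 and 1.18 (4C), 2.83, 1.77 and 2.26 (4C11-), and -0.70, -0.70 and -2.58 (4C11+). It was above the floor only in the mesenchymal-like libraries, with a CPM higher in 4C than in melan-a by a ratio of 10.2 (95% counting interval 4.22 to 31.9, limma adjusted p = 0.0213), lost without melan-a replicates 2 or 3 or 4C replicates 1 or 2 (log2 difference 2.38 to 2.92), and higher in 4C11- than in 4C11+ by a ratio of 33.05 (95% counting interval 8.89 to 277, limma adjusted p = 0.00145). Tnfrsf14 (HVEM) was -3.15 and -2.58 (melan-a), 1.40, 1.15 and 0.91 (4C), 1.57, 0.96 and 1.26 (4C11-), and -0.70, 0.15 and -0.24 (4C11+). It was at least 2.92-fold higher in 4C than in melan-a, which held 0 reads (limma adjusted p = 0.000279), and its 7 reads in 4C11+, at or under the floor in each library, give no fold against melan-a although that comparison passed (limma adjusted p = 0.00743). Tnfrsf1b (TNF receptor 2) was 2.91 and 2.41 (melan-a), -0.25, -0.21 and 0.63 (4C), 1.01, 0.24 and -1.50 (4C11-), and 0.44, 0.15 and 0.48 (4C11+) and so highest in melan-a, with a log2 difference of -2.60 ± 0.69 (limma adjusted p = 0.0251) between 4C and melan-a, lost without melan-a replicates 2 or 3 or 4C replicates 1 or 2 (log2 difference -2.86 to -2.35). Between 4C11+ and melan-a the log2 difference of Tnfrsf1b was -2.30 ± 0.69 (limma adjusted p = 0.0431), lost without melan-a replicates 2 or 3, 4C replicates 1, 2 or 3, 4C11- replicate 2 or 4C11+ replicates 1, 2 or 3 (log2 difference -2.55 to -2.05).

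Tnfrsf18 (GITR) was 2.49 and 1.89 (melan-a), -2.44, 0.08 and 0.44 (4C), 1.26, 1.58 and 0.70 (4C11-), and -0.70, -2.44 and -0.24 (4C11+), and its CPM was higher in melan-a than in 4C11+ by a ratio of 15.1 (95% counting interval 5.47 to 58.04, limma adjusted p = 0.0279), lost without melan-a replicates 2 or 3 or 4C11+ replicates 1 or 2 (log2 difference -3.62 to -2.66). Tnfrsf12a (the receptor of TWEAK) was expressed in all lines at 7.38 and 7.30 (melan-a), 7.42, 7.66 and 7.58 (4C), 8.04, 7.45 and 6.89 (4C11-), and 6.10, 6.49 and 6.01 (4C11+), with log2 differences of -1.27 ± 0.27 (limma adjusted p = 0.00447) between 4C11+ and 4C11- and -1.14 ± 0.30 (limma adjusted p = 0.0262) between 4C11+ and melan-a, the latter lost without melan-a replicates 2 or 3 or 4C11+ replicates 1 or 3 (log2 difference -1.18 to -1.05). Tnfrsf1a, the main receptor of TNF, ranged from 5.56 to 6.81 over the libraries and passed in no comparison, as did Tnfrsf10b, Tnfrsf22 and Tnfrsf25. Tnfrsf23 was -3.15 and -0.54 (melan-a), -0.04, 1.78 and 0.80 (4C), -0.70, 0.44 and 0.02 (4C11-), and -0.70, -2.44 and -2.58 (4C11+). Its values overlapped between mesenchymal-like and epithelial lines, its CPM was higher in the former by a ratio of 9.41 (95% counting interval 3.50 to 35.6, limma adjusted p = 0.0166), and the call was lost without melan-a replicate 2 (log2 difference 1.61). Reads of Tnfrsf22 and Tnfrsf23, related decoy receptors that lie 16.1 kb apart on chromosome 7, may not be fully separated.

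Of the 5 chemokine receptors, Ccr7, which guides cells toward lymph nodes, was -0.72 and -2.58 (melan-a), -0.04, 2.44 and 3.50 (4C), 2.06, 1.04 and 0.22 (4C11-), and -0.70, -2.44 and -2.58 (4C11+). It was above 3 reads in the mesenchymal-like libraries and held 3 reads in all 5 epithelial ones, with higher CPM in the mesenchymal-like lines by a ratio of 30.97 (95% counting interval 10.4 to 152, limma adjusted p = 0.00398). Its ratio was 26.1 (95% counting interval 7.06 to 218, limma adjusted p = 0.0384) for 4C over melan-a, lost without melan-a replicate 3, 4C replicates 2 or 3, 4C11- replicate 2 or 4C11+ replicate 2 (log2 difference 2.68 to 3.62), and 33.05 (95% counting interval 5.64 to 1334, limma adjusted p = 0.0306) for 4C11- over 4C11+, lost without 4C11- replicates 1 or 2 or 4C11+ replicates 2 or 3 (log2 difference -3.04 to -2.53). Ackr3, a scavenger of CXCL12, was 5.29 and 3.70 (melan-a), 4.59, 3.52 and 4.42 (4C), 3.79, 3.42 and 3.84 (4C11-), and 2.49, 2.17 and 2.95 (4C11+). Its 4C11+ libraries were the lowest, and it was lower in 4C11+ than in melan-a by a log2 difference of -1.96 ± 0.49 (limma adjusted p = 0.0205), lost without melan-a replicate 2 or 4C11+ replicates 1 or 2 (log2 difference -1.93 to -1.17). Ccr10, the receptor of CCL27 and CCL28, was 0.40 and 0.40 (melan-a), 0.20, 0.93 and 0.91 (4C), 0.48, 0.06 and -2.01 (4C11-), and 1.90, 2.52 and 2.59 (4C11+). The 4C11+ libraries were the highest, with a log2 difference of 2.83 ± 0.62 (limma adjusted p = 0.00504) from 4C11-. Cxcr5, which guides B cells to follicles, was 0.06 and 0.40 (melan-a), -1.01, -1.01 and 0.24 (4C), -0.70, 0.44 and 0.96 (4C11-), and -2.44, -2.44 and -2.58 (4C11+). It was at 0 reads in 4C11+ and low elsewhere, at least 1.16-fold lower than in melan-a (limma adjusted p = 0.0206), a call lost without melan-a replicates 2 or 3 or 4C11+ replicates 1 or 2 (log2 difference -2.89 to -2.55). It was also at least 1.16-fold lower than in 4C11- (limma adjusted p = 0.00581), a call made in each fit that left out 1 library. Ackr4, a scavenger of CCL19 and CCL21, passed in no comparison.

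**Figure D4:**
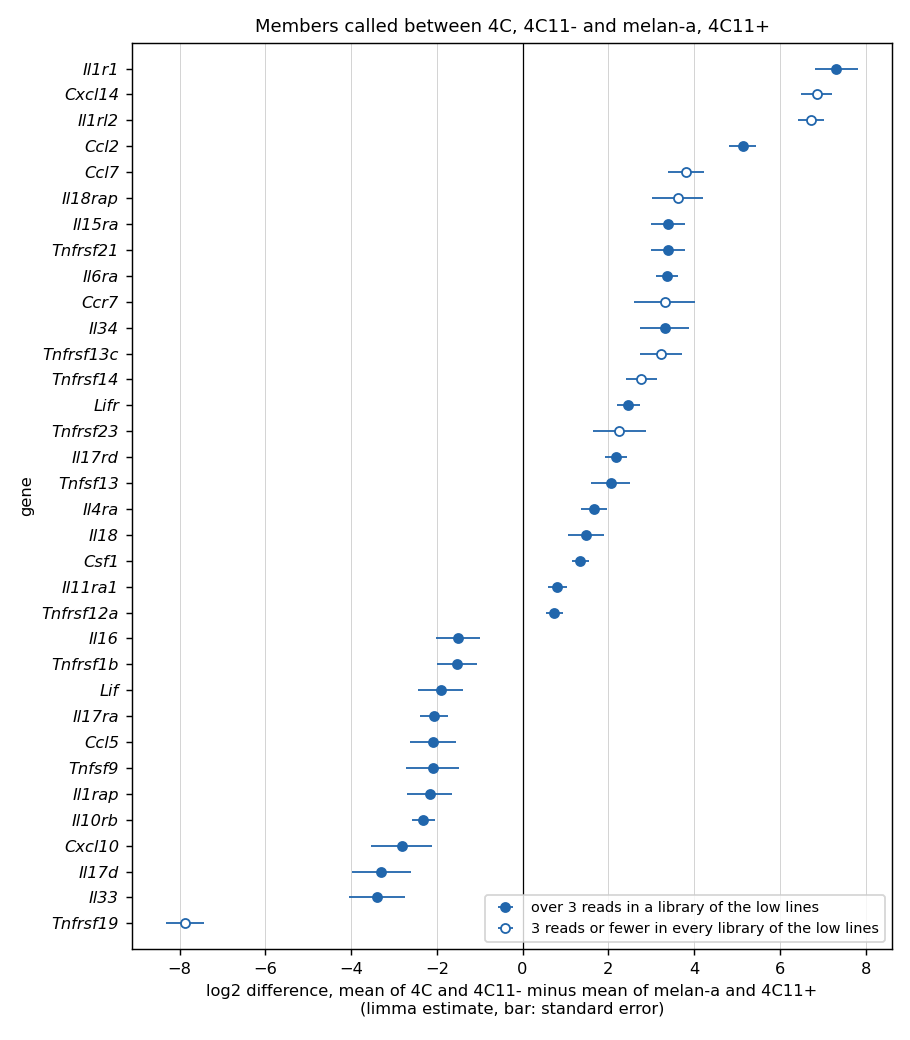
Log2 difference (limma estimate, bars are standard errors) of the 34 members called when 4C and 4C11- (mesenchymal-like) are compared with melan-a and 4C11+ (epithelial). Open points have 3 reads or fewer in every library of the low lines, and the points run from Tnfrsf19 at -7.87 to Il1r1 at 7.32, with estimates of open points depending on how values near 0 reads were set.

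Between 4C and its derivative 4C11-, both mesenchymal-like, 3 members passed, all receptors. Il11ra1 was higher in 4C11- by a log2 difference of 2.35 ± 0.29 (limma adjusted p = 0.00166), and it passed in each of the fits that left out 1 library. Il18rap was lower, with a log2 difference of -3.79 ± 0.78 (limma adjusted p = 0.0354), where 4C11- replicate 1 (1.13) lay above replicates 2 and 3 (-2.01 each), and the call was lost without 4C replicates 1, 2 or 3, 4C11- replicates 2 or 3 or 4C11+ replicates 1, 2 or 3 (log2 difference -3.83 to -3.27). Lifr was also lower, with a log2 difference of -1.74 ± 0.37 (limma adjusted p = 0.0377) and no overlap between the lines, and was lost without 4C replicates 1, 2 or 3, 4C11- replicates 1, 2 or 3 or 4C11+ replicates 1, 2 or 3 (log2 difference -1.91 to -1.51). None of the 20 ligands passed in limma, and 5 had an unadjusted p under 0.05 (25%, with 13.5% of all genes).

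Genes that carry the signal of these receptors were taken from fixed lists. Of the NF-kB list, 39 of 42 genes had values, and 11 of 39 (9 higher, 2 lower) passed between 4C and melan-a, 13 of 39 (7 higher, 6 lower) between 4C11+ and 4C11-, 8 of 39 (5 higher, 3 lower) between 4C11+ and melan-a and 12 of 39 (7 higher, 5 lower) between mesenchymal-like and epithelial lines. These are 28.2%, 33.3%, 20.5% and 30.8% of the list, where 15.2%, 31.1%, 15.9% and 29.7% of all genes passed. In the last comparison Birc3, an inhibitor of apoptosis that NF-kB induces, had a log2 difference of 3.71 ± 0.62 (limma adjusted p = 0.000813), the adaptor Traf5 2.09 ± 0.39 (limma adjusted p = 0.0018) and the adaptor Myd88, used by IL-1 receptors, 1.77 ± 0.23 (limma adjusted p = 0.000118). Birc3 held 14 and 0 reads in melan-a (replicates 2 and 3, log2 CPM 1.87 and -2.58) and 1, 1 and 2 in 4C11+. The size of its difference thus depends on how values near 0 reads were set. Irak3, an inhibitor of IL-1 and Toll-like receptor signalling, held at most 2 reads in each epithelial library, and its CPM was higher in the mesenchymal-like lines by a ratio of 15.9 (95% counting interval 6.04 to 59.6, limma adjusted p = 5.73e-05). Of the JAK-STAT list, 28 of 29 genes had values, and 2 of 28 (2 higher, 0 lower), 6 of 28 (2 higher, 4 lower), 3 of 28 (2 higher, 1 lower) and 6 of 28 (3 higher, 3 lower) passed in the same order, which is 7.14%, 21.4%, 10.7% and 21.4% of the list. Stam and Tyk2 were lower in the mesenchymal-like lines, with log2 differences of -1.36 ± 0.39 (limma adjusted p = 0.0217) and -1.23 ± 0.28 (limma adjusted p = 0.00588). The call of Stam was lost without melan-a replicate 3 (log2 difference -1.25). Between 4C11- and 4C none of the 67 genes of both lists passed in limma, and 9 had an unadjusted p under 0.05 (13.4%, with 13.5% of all genes). Both lists together gave 18 of 67 genes (26.9%) between mesenchymal-like and epithelial lines, near the 29.7% of all genes, with median log2 differences of -0.01 and -0.09.

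The counts of signalling genes rest on single libraries as well. Between 4C and melan-a 13 of the 67 genes passed (19.4%, with 15.2% of all genes). The count was 6 without melan-a replicate 2 (8.96%, with 13.1% of all genes), 7 without melan-a replicate 3 (10.4%, with 12.98% of all genes), 8 without 4C replicate 1 (11.9%, with 13.2% of all genes), 6 without 4C replicate 2 (8.96%, with 10.2% of all genes), 5 without 4C replicate 3 (7.46%, with 11.6% of all genes), 8 without 4C11- replicate 2 (11.9%, with 12.8% of all genes), 8 without 4C11+ replicate 1 (11.9%, with 12.7% of all genes) and 8 without 4C11+ replicate 2 (11.9%, with 13.1% of all genes). Between 4C11+ and 4C11- 19 passed (28.4%, with 31.1% of all genes), against 10 without 4C11+ replicate 1 (14.9%, with 20.9% of all genes) and 11 without 4C11+ replicate 2 (16.4%, with 21.7% of all genes). Between 4C11+ and melan-a 11 passed (16.4%, with 15.9% of all genes), against 6 without melan-a replicate 2 (8.96%, with 8.30% of all genes), 17 without 4C11- replicate 1 (25.4%, with 20.1% of all genes), 5 without 4C11+ replicate 1 (7.46%, with 7.63% of all genes) and 4 without 4C11+ replicate 2 (5.97%, with 8.02% of all genes).

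Cytokine genes whose symbols the rule did not take were described from another list, of which 16 of 33 genes had values, and 9 of 16 (5 higher, 4 lower) passed between mesenchymal-like and epithelial lines (56.2%, with 29.7% of all genes). Kitl, the ligand of the melanocyte receptor KIT, was -3.15 and -0.24 (melan-a), 5.21, 5.66 and 6.05 (4C), 3.06, 5.19 and 5.54 (4C11-), and 1.999, 2.01 and 1.77 (4C11+), with a log2 difference of 5.003 ± 0.56 (limma adjusted p = 3.23e-05). It was highest in 4C and in 4C11- and lowest in melan-a. Fas, the death receptor, was -3.15 and -2.58 (melan-a), 2.47, 3.23 and 2.72 (4C), 2.06, 2.41 and 1.72 (4C11-), and 0.63, -2.44 and -1.16 (4C11+), with a log2 difference of 4.36 ± 0.51 (limma adjusted p = 5.15e-05). Fas held 0 reads in both melan-a libraries and 5, 0 and 1 in 4C11+. Its estimate therefore depends on how values near 0 reads were set. Cntfr, the binding chain for CNTF, was -0.72 and 2.03 (melan-a), -3.44, -3.44 and -3.44 (4C), -2.01, -3.44 and -3.44 (4C11-), and 2.91, 3.24 and 4.10 (4C11+), and Tslp, an epithelial cytokine, was 0.40 and 1.16 (melan-a), -3.44, -3.44 and -3.44 (4C), -3.15, -3.44 and -3.15 (4C11-), and 1.60, 1.04 and 1.04 (4C11+). Both were above the floor in 4C11+ and at 0 or 1 read in each mesenchymal-like library. Tslp was also above the floor in both melan-a libraries, and Cntfr only in replicate 3. The CPM was higher in the epithelial lines by a ratio of 306 (95% counting interval 54.3 to 12164, limma adjusted p = 2.55e-05) for Cntfr and of 72.5 (95% counting interval 12.3 to 2927, limma adjusted p = 9.59e-06) for Tslp.

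Marker lists of cell types were described in the same libraries. Of 11 melanocyte markers 10 had values, and their summed CPM was 1966 and 9209 in melan-a, 8.71, 4.03 and 7.02 in 4C, 12.9, 6.04 and 4.36 in 4C11- and 13609, 11312 and 12511 in 4C11+. The most abundant of them was Sox10 in melan-a replicate 2, Tyrp1 in melan-a replicate 3, Pmel in 4C11+ replicates 1 and 2 and Dct in 4C11+ replicate 3, and all 10 passed as lower in 4C than in melan-a and higher in 4C11+ than in 4C11-. Of 9 fibroblast markers 4 had values (Col1a1, Col3a1, Pdgfra and Pdgfrb), with a summed CPM of 206 and 19.8 in melan-a, 2307, 2534 and 2630.0 in 4C, 2230.4, 1968 and 2018 in 4C11- and 41.9, 45.02 and 25.8 in 4C11+. The most abundant was Col1a1 in the 6 libraries of 4C and 4C11-, Pdgfrb in melan-a replicate 2 and in 4C11+, and Pdgfra in melan-a replicate 3, and all 4 were called in the opposite direction. Between 4C and melan-a the call of Pmel was lost without melan-a replicate 3 or 4C replicate 2 (log2 difference -2.01 to -1.86), that of Pdgfra without melan-a replicate 3 (log2 difference 1.16) and that of Pdgfrb without 4C replicates 2 or 3 (log2 difference 4.53 to 4.55), and between 4C11+ and 4C11- that of Pdgfrb was lost without 4C replicates 1, 2 or 3, 4C11- replicates 1, 2 or 3 or 4C11+ replicates 1, 2 or 3 (log2 difference -3.33 to -2.75). Pdgfrb was 6.90 and 0.89 in melan-a (replicates 2 and 3), so the size of its difference from 4C depends on the melan-a library used. Melanocyte markers were thus lowest in the lines where Cxcl14, Il1r1 and Ccl2 were high. Of 14 leukocyte markers only Cd68, Csf1r (itself a member) and Lyz2 had values, and their summed CPM was 96.8 and 12.7 in melan-a, 8.18, 7.64 and 20.4 in 4C, 44.7, 10.7 and 15.2 in 4C11- and 20.2, 15.7 and 9.11 in 4C11+, highest in melan-a replicate 2. Of 7 endothelial markers 3 had values, with Cdh5 at 6.73, 7.43 and 6.54 in 4C11- and 4.01, -0.70 and 0.44 in 4C, a log2 difference of 5.65 ± 0.97 (limma adjusted p = 0.0135), lost without 4C replicates 2 or 3 or 4C11- replicate 2 (log2 difference 4.67 to 5.38). Cdh5 makes up most of the summed CPM in 4C11-, and Vwf and Egfl7 did not pass between these lines. The summed CPM was 48.4 and 17.9 in melan-a, 30.7, 10.8 and 20.03 in 4C, 139, 182 and 102 in 4C11- and 28.6, 27.4 and 28.2 in 4C11+. Of 7 keratinocyte markers only Krt10 had values, at most 1.48 log2 CPM. The part of these markers, of PMA and of the difference between the 2 melan-a libraries in the results for the members was not tested.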

How the data were processed

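Total RNA of 11 libraries of 4 murine lines was analysed. The authors trimmed reads with Trimmomatic, aligned them with STAR to GRCm38 (Ensembl 90), counted them per gene with Rsubread, dropped genes unless 4 or more libraries reached 1 CPM, and made the values with voom (limma). The deposited values are log2 CPM per gene, and their highest value (13.69) is shared by all libraries, as quantile normalization would give. They were used as deposited. Symbols came from GENCODE for GRCm38, which matched 14248 of 14272 identifiers. The members and lists were chosen with earlier results of these data known.

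Differences were computed with limma 3.58.1 in R 4.3.3, fitting 1 mean per line to the 11 libraries together and shrinking variances toward a trend on the mean, with line means weighted equally where a comparison joins lines, and Benjamini-Hochberg adjustment over all genes, where a call needs an adjusted p under 0.05. These steps were first tested on simulated data. Any member was described by its values, and a member was named as a result only where it passed, up to 12 with the largest absolute log2 difference per comparison and each called chemokine or interleukin ligand, and up to 4 genes of other lists. Further called members were named after their values were seen. Depth came from the step at 40 reads, with a floor of 3 reads per library. Python 3.11.15, NumPy 2.4.6, pandas 2.3.3, SciPy 1.17.1 and matplotlib 3.10.9 were used for the other steps. Alternatives covered normalization, a pseudocount of 1 CPM, a filter on low values, the variance model, the libraries in the fit, the replicate number as a block and each library left out.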

Additional observations from a re-analysis of the deposited data

How the results depend on the processing

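With genes of a mean log2 value under 1 left out, which leaves 29 of the 56 members and 11444 genes to test, the members that passed numbered 12 (4C and melan-a, 41.4% of members and 13.9% of all genes), 1 (4C11- and 4C, 3.45% and 1.09%), 17 (4C11+ and 4C11-, 58.6% and 30.7%) and 20 (mesenchymal-like and epithelial lines, 68.97% and 28.6%). Fewer members were tested, but between 4C11- and 4C Lifr was still tested and no longer passed. All genes that passed between 4C11- and 4C then numbered 125, and the cause was not tested. This filter acts on the mean over all libraries and still keeps members that are silent in some lines. With only the libraries of the lines compared, 7 signalling genes passed between 4C and melan-a, and 143 (4C11- and 4C) and 1446 (4C11+ and melan-a) of all genes, with fewer samples in the fit. The other counts stayed within 1.5 times under these settings, a further quantile normalization, a pseudocount of 1 CPM and a variance model without a trend. With each library left out in turn, the members that passed numbered 15 to 26 (4C and melan-a), 1 to 3 (4C11- and 4C), 24 to 31 (4C11+ and 4C11-), 3 to 15 (4C11+ and melan-a) and 29 to 37 (mesenchymal-like and epithelial lines). Signalling genes numbered 5 to 18, 0 in each fit, 10 to 22, 4 to 17 and 13 to 20, and all genes 1453 to 2663, 93 to 320, 2986 to 4813, 1089 to 2864 and 3383 to 4854, in the same order, where fewer samples entered the fit. A fit with 1 melan-a library assumes that it varies like the other lines.

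No called difference of a member changed direction. Of 1111 values with a library left out, 135 were no longer past the threshold, and of the values under the other alternatives 1 of 60 (filter), 12 of 67 (fewer lines), 4 of 101 (no trend), 6 of 101 (pseudocount), 0 of 101 (quantile normalization) and 5 of 101 (replicate block). Of the 15 pairs of libraries that share a replicate number, 8 deviated together from their line means with a correlation over 0.1, including all 3 pairs of replicate 1, and 7 did not (range over all pairs -0.23 to 0.39), and not every library correlated best with one of its own number, so the numbers were not taken to pair them. With the replicate block, 22, 3, 29, 11 and 35 members passed, 12, 0, 20, 12 and 19 signalling genes and 2265, 254, 4715, 1930 and 4566 of all genes. Depth limits the members near the floor, where 35 of the 56 had 3 reads or fewer in at least 1 library.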
